A study of Mus musculus with 24 samples.

Results

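A list of 38 genes of the response to hypoxia and of glycolysis was examined in osteocyte-like mouse cells after fluid flow, and 33 of them were measured, out of 12393 genes on the array. A gene was measured when at least 1 probe set carried its symbol and no other, and where several did, the one with the highest mean stood for it. The glycolytic genes Gpi1, Gapdh and Eno1 and the hypoxia targets Bnip3l and Ankrd37 had no such probe set.

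MLO-Y4 is an osteocyte-like line from mouse bone. Osteocytes are the cells embedded in bone matrix that sense load. The line is labelled as of mixed strain, from C57B1/6, BALB/c and DBA2. Cells grew on glass slides coated with type I collagen, and flow slides received oscillating flow for 2 h (1 Hz, shear stress peaking at 10 dyn/cm2), while sham slides stayed in static chambers for the same 2 h. RNA was taken at once (0 h) or 2, 8 or 24 h later. The labels give 3 flow and 3 sham arrays at each of the 4 times, 24 Affymetrix arrays in all. Only this line was used, and the methods speak of triplicates without saying whether they came from separate cultures. The p-values therefore reflect how far these arrays differ, and that difference may be technical. The methods also call the sham controls paired. The labels do not say which flow and sham arrays form a pair, and the main model treats the arrays as unpaired. An alternative used the replicate number as a block shared by all times.

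Cells sense oxygen through prolyl hydroxylases, which mark the α subunits of the hypoxia-inducible factors (HIF) for destruction as long as oxygen is present. When oxygen is scarce, HIF-1α is stabilized, pairs with ARNT and binds DNA at sites with the core letters ACGTG or GCGTG. Its targets include glucose transporters, nearly every enzyme of glycolysis, Pdk1, which restrains the oxidation of pyruvate in the mitochondria, and the mitophagy gene Bnip3. Osteocytes live in a matrix with little oxygen, and cultured cells of many kinds switch these genes on together.

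The promoters of the genes that the results turn on are given here because they show how widely this core occurs in the list. RefSeq promoter windows of 300 bases, 250 before and 50 after the start of a transcript (GRCm38.p6), were found for 35 of the 38 genes. Capitals mark every ACGTG on either strand, which reads CACGT where it lies on the opposite strand, and the palindrome CACGTG holds 1 match on each strand. Each window runs 5′ to 3′ on the strand of its gene. Bnip3 lies on the minus strand (chr7:138909457-138909756), as does Egln1 (chr8:124949205-124949504) and Pfkl (chr10:78009758-78010057), and Ldha (chr7:46845554-46845853) and Hif1a (chr12:73907617-73907916) lie on the plus strand.
Bnip3: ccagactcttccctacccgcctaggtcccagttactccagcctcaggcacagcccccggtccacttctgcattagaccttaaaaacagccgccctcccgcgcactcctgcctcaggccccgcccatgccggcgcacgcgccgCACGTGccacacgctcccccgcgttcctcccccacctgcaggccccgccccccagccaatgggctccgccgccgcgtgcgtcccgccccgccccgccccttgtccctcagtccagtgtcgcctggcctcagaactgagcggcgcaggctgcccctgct
Egln1: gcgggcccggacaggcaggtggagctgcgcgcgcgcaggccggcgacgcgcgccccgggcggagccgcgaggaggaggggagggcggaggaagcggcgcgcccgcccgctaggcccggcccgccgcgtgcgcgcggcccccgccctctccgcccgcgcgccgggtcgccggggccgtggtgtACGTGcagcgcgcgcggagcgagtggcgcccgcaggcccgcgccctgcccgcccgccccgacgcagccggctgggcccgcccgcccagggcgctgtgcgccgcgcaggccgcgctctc
Ldha: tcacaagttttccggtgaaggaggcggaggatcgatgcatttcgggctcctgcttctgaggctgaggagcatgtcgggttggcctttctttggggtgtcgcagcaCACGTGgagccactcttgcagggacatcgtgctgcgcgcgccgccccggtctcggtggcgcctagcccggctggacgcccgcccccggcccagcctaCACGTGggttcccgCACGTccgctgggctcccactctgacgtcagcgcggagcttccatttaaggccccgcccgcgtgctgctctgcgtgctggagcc
Hif1a: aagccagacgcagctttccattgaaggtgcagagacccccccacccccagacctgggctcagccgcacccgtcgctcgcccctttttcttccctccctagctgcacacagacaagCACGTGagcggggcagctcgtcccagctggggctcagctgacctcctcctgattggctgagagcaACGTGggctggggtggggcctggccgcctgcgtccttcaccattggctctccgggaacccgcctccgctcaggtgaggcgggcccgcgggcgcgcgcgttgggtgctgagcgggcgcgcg
Pfkl: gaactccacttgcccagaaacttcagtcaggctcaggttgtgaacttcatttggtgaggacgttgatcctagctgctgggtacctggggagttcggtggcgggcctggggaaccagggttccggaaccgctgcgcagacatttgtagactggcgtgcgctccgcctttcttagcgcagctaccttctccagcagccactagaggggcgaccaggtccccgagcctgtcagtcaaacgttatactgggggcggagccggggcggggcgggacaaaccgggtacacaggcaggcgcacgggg
The Bnip3 window holds 1 palindrome, 108 bases before the start site, and the Egln1 window holds 1 match 68 bases before it. The Ldha window holds 5 matches, of which 4 form 2 palindromes, and the Hif1a window holds 3. No ACGTG occurs in the Pfkl window, which holds 1 match of GCGTG, left in small letters.

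Over the whole list, 25 of 35 genes (71.4%) had ACGTG in at least 1 window, against 5885 of 27018 genes in the RefSeq table (21.8%). The other core, GCGTG, occurred in 22 of 35 (62.9%) and in 35.2% of all genes, and no run of 5 bases can match both. Both cores contain the letters CG, and a member window held a median of 22 CG pairs, against 7 over all windows. A match is a description of the letters and does not show a bound site.

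Of the osteocyte markers, Phex, Pdpn and Gja1 stood above a log2 value of 6 on all 24 arrays, whereas Dmp1, Sost, Mepe, Fgf23 and Dkk1 stayed below 6 on all of them, so the label of the line was met by 3 of 8 markers. All values are log2 expression values made by the authors with RMA. The medians of the arrays lay between 6.71 and 6.80, and no arrays held identical values. Similarity followed the columns of the table more than the labels: the most similar array to a given one shared its label in 16 of 24 cases and was deposited directly before or after it in 22 of 24. It lay 8 or 16 columns away in only 2 of 24. Each comparison of flow with sham below rests on the labels as given.

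Most of the hypoxia and glycolysis genes had a lower mean in flow than in sham at 0 h and 24 h. No such tilt was seen at 2 h and 8 h with all arrays included, but the medians there depended on single arrays. At 0 h 28 of the 33 genes had the lower mean in flow, against 46.9% of all genes, and the median log2 difference (flow minus sham) was -0.19 over the list and 0.01 over all genes. At 24 h it was 29 of 33, against 45.6% of all genes, with medians of -0.24 and 0.01. The members varied together between arrays, also within labels, where 19 followed Bnip3 with a Pearson r of at least 0.7. Counts of members here and below are therefore not counts of independent genes. Arrays of whole cultures cannot tell a lower level in every cell from fewer cells with a gene switched on. At 2 h 14 of 33 had the lower mean in flow (49.5% of all genes, list median 0.01) and at 8 h 19 of 33 (47.4%, list median -0.02). A difference of at least 2-fold was reached by 3 members at 0 h, out of 16 such genes on the whole array (0.129%), and by 3 at 24 h, out of 55 (0.444%).

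No gene of the list passed the test at any time, and neither did any other gene. In limma, with Benjamini-Hochberg adjustment over 12393 genes, 0 genes (0%) had an adjusted p under 0.05 at 0, 2, 8 or 24 h, whereas 1729, 1681, 1781 and 1921 had an unadjusted p under 0.05. At that unadjusted level 8 members were lower in flow at 0 h (24.2%, against 5.53% of all genes) and 1 was higher (against 8.42%). The count of 8 ran from 2 (without flow 0 h replicate 2) to 11 when single arrays were left out and was 1 with RNA quality covariates. At 24 h 8 were lower (24.2%, against 5.7% of all genes) and 0 were higher (against 9.8%), and this count of 8 was 2 with trend and robust moderation, 3 with the replicate block, 0 with RNA quality covariates and 0 to 13 without single arrays (fewest without sham 24 h replicate 1, most without sham 24 h replicate 3). At 2 h 1 was lower (7.58% of all genes) and 0 were higher (5.99%), and at 8 h 1 was lower (7.74%) and 2 were higher (6.63%). At the 4 times in turn the smallest adjusted p of a member was 0.218, 0.366, 0.261 and 0.29 (limma).

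These tilts went away with RNA quality covariates and kept their sign when single arrays were left out. The beta-actin control (3′ minus 5′ probe sets, in log2 units) was 0.224 to 0.244 on the flow arrays and 0.150 to 0.203 on the sham arrays at 24 h, with no overlap. At 2 h it was 0.138 to 0.168 on the flow arrays and 0.191 to 0.262 on the sham arrays, also with no overlap. The ranges overlapped at 0 h, with 0.195 to 0.232 on the flow arrays and 0.145 to 0.220 on the sham arrays. Where they do not overlap, adjusting for this control cannot be told apart from removing a difference between flow and sham. With these differences for beta-actin and Gapdh as covariates the list median at the 4 times in turn became -0.03, -0.30, -0.12 and 0.03, so the tilts at 0 h and 24 h were both gone, with 14 and 17 of 33 members higher in flow, and one at 2 h appeared. When single arrays were left out in turn, with no covariates, the median at 0 h lay between -0.28 and -0.14 and at 24 h between -0.31 and -0.15. At 2 h it lay between -0.11 and 0.18, with 12 to 27 of 33 members higher in flow. At 8 h it lay between -0.14 and 0.12, with 8 to 23 higher. The sign of the list median at 2 h and 8 h thus changed with the array left out.

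**Figure D1:**
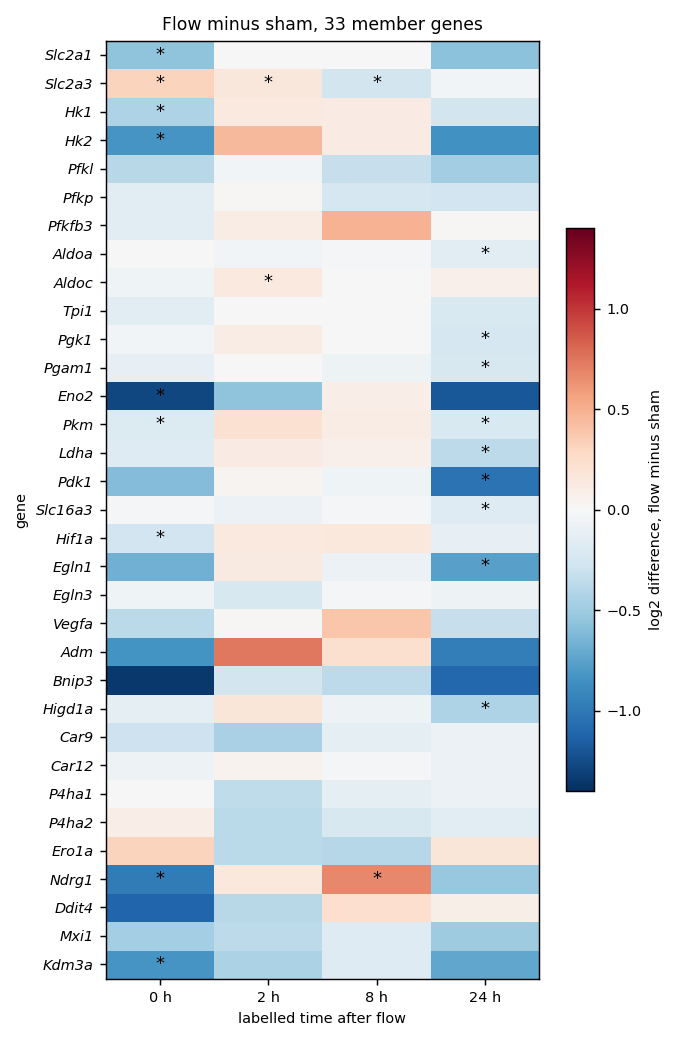
Difference between flow and sham in log2 units (colour, flow minus sham) for 33 genes (rows) at the 4 labelled times (columns). An asterisk marks values of the 3 flow and 3 sham arrays that do not overlap. Blue, lower in flow, fills most of the 0 h and 24 h columns, with 28 and 29 of 33 genes, and Bnip3 and Eno2 are the darkest.

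At 0 h every flow value was under every sham value for 8 members (7.92% of all genes), and the opposite held for 1 (11.1% of all genes). Ndrg1, a HIF target whose protein restrains growth and spread of cells, had the smallest p. Its values were 10.50, 10.21 and 10.25 in flow and 11.33, 11.13 and 11.45 in sham. The groups were far apart, with a log2 difference of -0.98 (standard error 0.27, limma adjusted p = 0.218). The 4 other Ndrg1 probe sets differed by between -1.30 and -0.95, and all followed the chosen one with r between 0.946 and 0.987 over 24 arrays.

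Glucose enters the cell through the transporters encoded by Slc2a1 (GLUT1) and Slc2a3 (GLUT3), and hexokinases 1 and 2 trap it as glucose 6-phosphate. Slc2a1 was at 11.37, 11.08 and 11.18 in flow and at 11.85, 11.52 and 11.95 in sham at 0 h. The groups did not overlap, and the log2 difference was -0.56 (standard error 0.22, limma adjusted p = 0.263). Hk2 was at 9.95, 9.81 and 9.75 in flow and at 11.03, 10.61 and 10.33 in sham. All flow values lay below the lowest sham value, with a difference of -0.82 (standard error 0.34, limma adjusted p = 0.284), which became -0.15 with the RNA quality covariates. Hk1 differed by -0.44 and did not overlap either.

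Of the 5 members with the higher mean in flow at 0 h, Slc2a3 was the only one whose groups did not overlap. Its values at 0 h were 8.17, 8.40 and 8.36 in flow and 7.97, 7.90 and 8.11 in sham. Flow was higher on every array, by 0.32 (standard error 0.10, limma adjusted p = 0.218). At 8 h the order was turned, with 7.89, 7.88 and 7.92 in flow and 8.22, 8.28 and 7.97 in sham, again with no overlap. The log2 difference there was -0.26 (standard error 0.10, limma adjusted p = 0.261), and the test of whether the difference changes between the 4 times gave an adjusted p = 0.0805 for this gene.

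Hif1a, the gene of the oxygen-regulated subunit itself, differed little by the probe set used here. At 0 h it was at 11.32, 11.27 and 11.18 in flow and at 11.49, 11.64 and 11.44 in sham. The groups did not overlap, but the log2 difference was only -0.26 (standard error 0.09, limma adjusted p = 0.224). Differences at 2, 8 and 24 h were 0.13, 0.14 and -0.11, and the range over all 24 arrays was 0.54. Another Hif1a probe set with a mean of 9.27 differed by -0.66 at 0 h and -0.48 at 24 h. A dim one with a mean of 5.10 differed by -0.67 at 0 h, and the dimmest, with a mean of 3.77, by 0.02. The probe sets thus disagree in size.

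The remaining members with no overlap at 0 h were Eno2, Kdm3a and Pkm. Eno2, the enolase best known from neurons, was at 5.53, 5.27 and 5.53 in flow and at 7.43, 6.14 and 6.58 in sham. The difference was -1.27 (standard error 0.55, limma adjusted p = 0.305). All 3 flow values stood below a log2 value of 6, where signals are dim, and all 3 sham values above it.

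Kdm3a, a histone demethylase induced by HIF, differed by -0.82, and Pkm, the pyruvate kinase of the last step of glycolysis, by -0.19. Ddit4, a brake on mTOR signaling, was at 9.14, 9.60 and 9.79 in flow and at 11.68, 10.80 and 9.38 in sham at 0 h. Sham replicate 3 lay among the flow arrays while the other sham arrays were well above. The difference of -1.11 (standard error 0.50, limma adjusted p = 0.325) became -1.73 without that array and -0.58 without sham replicate 1.

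Bnip3 had the largest mean difference of the list at 0 h, and its sham arrays fell into separate levels. It was at 9.21, 9.01 and 8.97 in flow and at 10.82, 9.17 and 11.25 in sham. Sham replicate 2 was at the level of the flow arrays. The log2 difference was -1.35 (standard error 0.71, limma adjusted p = 0.399). Pdk1 followed the same arrays, with 7.76, 7.64 and 7.55 in flow and 8.43, 7.37 and 8.97 in sham, a difference of -0.61 (standard error 0.49, limma adjusted p = 0.609).

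Secreted targets of HIF showed the same spread. Vegfa, the growth factor of blood vessels, was at 8.06, 8.04 and 8.17 in flow and at 8.79, 8.61 and 8.00 in sham at 0 h, so the groups overlapped (log2 difference -0.38, limma adjusted p = 0.478). Adm, which encodes the vasodilator adrenomedullin, was at 9.93, 8.45 and 8.24 in flow and at 10.03, 9.06 and 10.01 in sham. A single flow array reached the sham level, and the difference was -0.83 (standard error 0.46, limma adjusted p = 0.421).

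**Figure D2:**
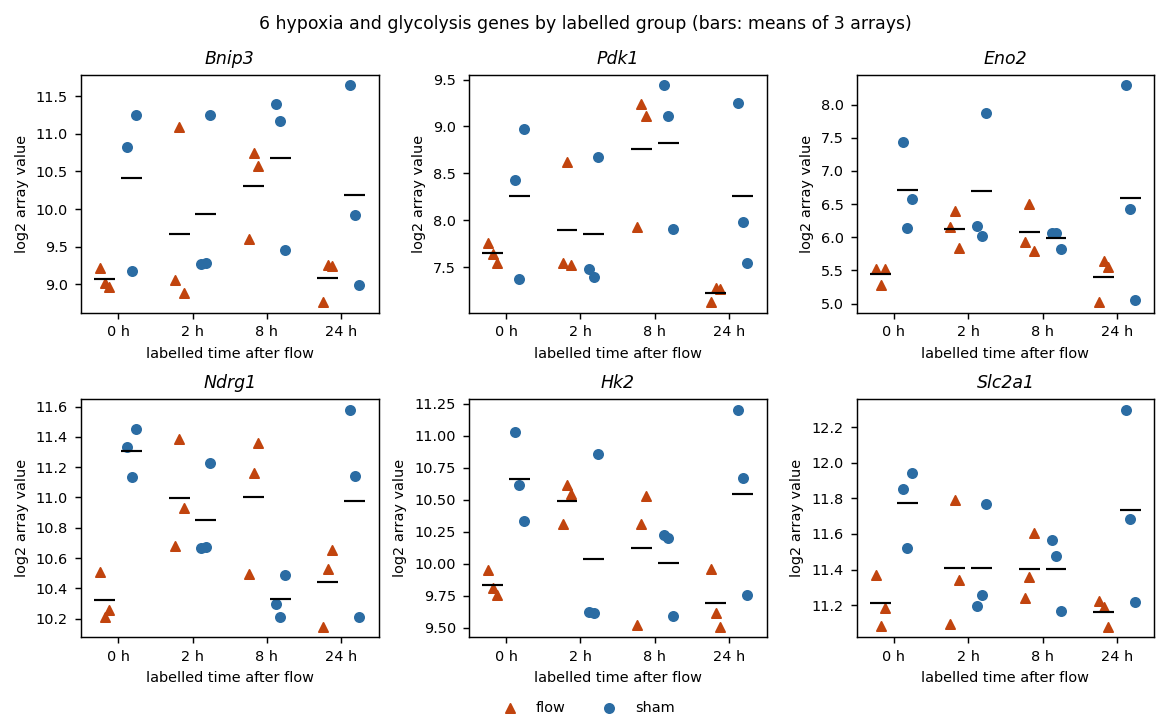
Log2 array values (vertical axes, which differ between panels and do not start at 0) of 6 genes by labelled time, with flow as triangles on the left, sham as circles on the right and black bars for the means of 3 arrays. At 0 h the flow arrays of Ndrg1, Hk2, Eno2 and Slc2a1 all lie below the sham arrays, while 1 sham value each of Bnip3 (9.17) and Pdk1 (7.37) lies within or below the range of the flow arrays.

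With all arrays included, the list at 2 h showed next to no difference between flow and sham. All flow values exceeded all sham values for 2 members, Slc2a3 and Aldoc (9.16% of all genes), and the opposite held for 0 (9.27% of all genes). Aldoc was dim, at 4.26 to 4.73 over the 24 arrays. Its other probe set differed by -0.17 at 2 h and ran against it (r = -0.35). The smallest p belonged to a trio of proteins of the endoplasmic reticulum: the collagen prolyl hydroxylase subunits P4ha1 and P4ha2, which let collagen fold, and the oxidase Ero1a, which makes disulfide bonds. P4ha1 was at 9.36, 9.85 and 9.48 in flow and at 9.77, 9.89 and 10.10 in sham. Most flow values were lower but the groups overlapped, and the log2 difference was -0.36 (standard error 0.17, limma adjusted p = 0.366).

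P4ha2 was at 8.25, 8.90 and 8.37 in flow and at 8.99, 8.94 and 8.74 in sham at 2 h, a difference of -0.38 (limma adjusted p = 0.415). Ero1a was at 11.20, 11.96 and 11.58 in flow and at 12.12, 11.97 and 11.78 in sham, also -0.38 (limma adjusted p = 0.394). In each of these genes flow replicate 2 lay at the sham level. The other Ero1a probe sets disagree with the one used here: they followed it with r = 0.22 and 0.03 over 24 arrays, and at 0 h they differed by -0.49 and -0.64 where the chosen one differed by 0.31.

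The largest mean differences at 2 h depended on single arrays. Adm was at 9.65, 10.25 and 9.97 in flow and at 8.65, 8.56 and 10.43 in sham, a difference of 0.74 (limma adjusted p = 0.447), which was 1.35 without sham replicate 3. Eno2 was at 6.15, 6.40 and 5.83 in flow and at 6.18, 6.03 and 7.88 in sham, a difference of -0.57 (limma adjusted p = 0.639), which was 0.03 without the same array. Ddit4 turned likewise, at -0.39 with sham replicate 3 and 0.31 without it. This array also stood highest at 2 h for Bnip3, Pdk1, Hk2 and Kdm3a.

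At 8 h Slc2a3, described above, Pfkfb3 and Ndrg1 had the smallest p. Ndrg1 was at 10.50, 11.16 and 11.36 in flow and at 10.30, 10.21 and 10.49 in sham. All flow values were higher, though flow replicate 1 only just, and the log2 difference was 0.67 (standard error 0.27, limma adjusted p = 0.285). The difference of Ndrg1 was thus of opposite sign at 0 h and at 8 h, and the test of a difference between the times gave an adjusted p = 0.0784 (limma). It was the only member whose flow values at 8 h were all higher (7.05% of all genes), and Slc2a3 the only one whose flow values were all lower (5.89% of all genes).

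Pfkfb3, which makes the activator of phosphofructokinase, was at 4.93, 5.59 and 6.00 in flow and at 4.98, 5.04 and 5.06 in sham at 8 h. Flow replicate 1 was the lowest of all and the others the highest, for a difference of 0.48 (standard error 0.19, limma adjusted p = 0.275). Without flow replicate 1 the difference was 0.77 (limma adjusted p = 0.0164), in a fit that called 672 genes at 8 h. The gene is dim, above a log2 value of 6 on 1 array, and its other probe set ran against it (r = -0.31).

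Bnip3 showed at 8 h that neither label held together. It was at 9.60, 10.74 and 10.57 in flow and at 11.39, 11.17 and 9.46 in sham. Flow replicate 1 and sham replicate 3 were low and the other 4 arrays high. Pdk1 split the same way, with 7.92, 9.24 and 9.11 in flow and 9.44, 9.11 and 7.91 in sham. The log2 differences were -0.37 for Bnip3 and -0.06 for Pdk1 (limma adjusted p = 0.856 and 0.967).

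At 24 h every flow value was under every sham value for 9 members (6.29% of all genes), and the opposite held for 0 (13.5% of all genes, and 19.8% in either direction). These 9 were the glycolytic enzymes Aldoa, Pgk1, Pgam1 and Pkm, the lactate dehydrogenase Ldha, the lactate exporter Slc16a3, Pdk1, the prolyl hydroxylase Egln1 and the mitochondrial protein Higd1a. Of these Slc16a3 was dim, at 4.17 to 4.64 over the 24 arrays. Ldha, which turns pyruvate to lactate, was at 12.15, 12.08 and 12.10 in flow and at 12.71, 12.46 and 12.25 in sham. The flow arrays were tightly grouped and the sham arrays spread upward, with a difference of -0.36 (standard error 0.17, limma adjusted p = 0.317). The differences of Aldoa, Pgk1, Pgam1 and Pkm were between -0.24 and -0.15.

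Pdk1 was at 7.13, 7.28 and 7.26 in flow and at 9.25, 7.98 and 7.55 in sham at 24 h, a difference of -1.04 (standard error 0.49, limma adjusted p = 0.318). Egln1, itself a HIF target that closes the feedback on HIF, was at 7.86, 7.88 and 7.90 in flow and at 9.48, 8.52 and 7.93 in sham, a difference of -0.77 (standard error 0.36, limma adjusted p = 0.316). In both genes the lowest sham array stood close to the flow arrays and sham replicate 1 stood far above. Egln3, its dim relative, differed by -0.07.

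The genes with the smallest p at 24 h shared that shape. Slc2a1 was at 11.22, 11.19 and 11.08 in flow and at 12.30, 11.69 and 11.21 in sham, a log2 difference of -0.57 (standard error 0.22, limma adjusted p = 0.29). Hk2 was at 9.96, 9.61 and 9.51 in flow and at 11.20, 10.67 and 9.76 in sham, a difference of -0.85 (standard error 0.34, limma adjusted p = 0.29). Sham replicate 3 lay within or near the range of the flow arrays in both.

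Eno2 was at 5.03, 5.64 and 5.55 in flow and at 8.29, 6.42 and 5.06 in sham at 24 h, the widest sham spread of the list. Its difference of -1.18 (standard error 0.55, limma adjusted p = 0.316) was -0.33 without sham replicate 1 and -1.95 without sham replicate 3. Without sham replicate 3 the fit called 278 genes at 24 h, among them Slc2a1, Eno2 and Ndrg1 (limma adjusted p = 0.0437, 0.0437 and 0.0493). Bnip3 was at 8.77, 9.25 and 9.24 in flow and at 11.64, 9.92 and 8.99 in sham, and its difference of -1.10 (limma adjusted p = 0.448) became -0.01 with the RNA quality covariates.

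Adm at 24 h was at 9.54, 8.57 and 8.84 in flow and at 10.61, 9.50 and 9.76 in sham, a difference of -0.97 (standard error 0.46, limma adjusted p = 0.318). Vegfa was at 8.29, 8.40 and 8.42 in flow and at 8.90, 8.84 and 8.34 in sham, a difference of -0.32. Both groups overlapped, Adm through flow replicate 1 and sham replicate 2 and Vegfa through sham replicate 3. Ddit4, by contrast, did not follow at this time, with 9.84, 10.11 and 10.01 in flow and 9.97, 10.11 and 9.63 in sham.

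Markers of other cell types were mostly dim, but the means of most adipocyte markers were lower in flow at 0 h and 24 h, as those of the list were. All 3 measured markers of adipocytes, Pparg, Fabp4 and Adipoq, had the lower mean in flow at 24 h (median log2 difference -0.76), and their summed level on the log2 scale was 7.60 to 7.85 on the flow arrays and 7.82 to 9.01 on the sham arrays. At 0 h 2 of the 3 had the lower mean, and the summed level was 7.81 to 8.50 in flow and 8.66 to 8.87 in sham. Adipoq, which defines adipocytes, was below 6 on all 24 arrays. Of the chondrocyte markers 3 of 4 had the lower mean in flow at 0 h and 4 of 4 at 24 h, with summed levels of 7.32 to 8.14 in flow and 7.71 to 7.87 in sham at 0 h and of 7.37 to 7.67 in flow and 7.55 to 8.20 in sham at 24 h. Sox9 was above 6 on 23 arrays and followed Bnip3 with r = 0.60, whereas Acan, Col2a1 and Matn1 were below 6 on all. Of the osteoblast markers 4 of 5 had the lower mean in flow at 0 h and 2 of 5 at 24 h, with summed levels of 12.18 to 12.36 in flow and 12.42 to 12.44 in sham at 0 h and of 12.41 to 12.45 in flow and 12.19 to 12.40 in sham at 24 h. Of the muscle markers 1 of 4 had the higher mean in flow at 0 h and 4 of 4 at 24 h. Their summed levels at 24 h were 9.42 to 9.91 in flow and 8.85 to 9.53 in sham. Des and Acta1 were above 6 on all 24 arrays. Higher in flow at 0 h were 6 of 8 macrophage and leukocyte, 6 of 7 endothelial and 4 of 6 epithelial markers. At 24 h these counts were 4, 4 and 3. Of the osteocyte markers 7 of 8 were lower in flow at 0 h and 4 of 8 at 24 h. The part of these genes in the result was not tested.

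Averaged over the 4 times, Slc2a1, Eno2, Bnip3 and Kdm3a were lower in flow at an unadjusted p under 0.05, 4 of 33 genes (12.1%, against 4.79% of all genes), with mean log2 differences of -0.28, -0.73, -0.77 and -0.54. Adjusted p was 0.986 or higher for each (limma). In the F-test over the 4 times 6 members (18.2%) had an unadjusted p under 0.05, against 23.3% of all genes, and in the test of a difference between times 6 (18.2%) did, against 27.3%. Over time the list did not stand apart from all genes: among the sham arrays 0 members changed over the 4 times at an adjusted p under 0.05, against 51 of all genes (0.412%), and 7 of 33 (21.2%) did so at an unadjusted p under 0.05, against 21.1% of all genes. The smallest of these p belonged to Slc16a3, which is dim, and P4ha1 (limma adjusted p = 0.146 and 0.167).

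The members varied together between arrays, also between arrays of the same label. Bnip3 had one of the widest ranges of the list, 2.88 log2 units, and its values left a gap of 0.65 between 9.92 and 10.57. Above the gap lay 9 arrays, 3 labelled flow and 6 labelled sham, and below it 15. The high arrays were flow 2 h replicate 2 (11.08), flow 8 h replicates 2 and 3 (10.74 and 10.57), sham 0 h replicates 1 and 3 (10.82 and 11.25), sham 2 h replicate 3 (11.24), sham 8 h replicates 1 and 2 (11.39 and 11.17) and sham 24 h replicate 1 (11.64). Arrays of 6 of the 8 labels were found on both sides of the gap, and all arrays labelled flow 0 h and flow 24 h were below it.

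**Figure D3:**
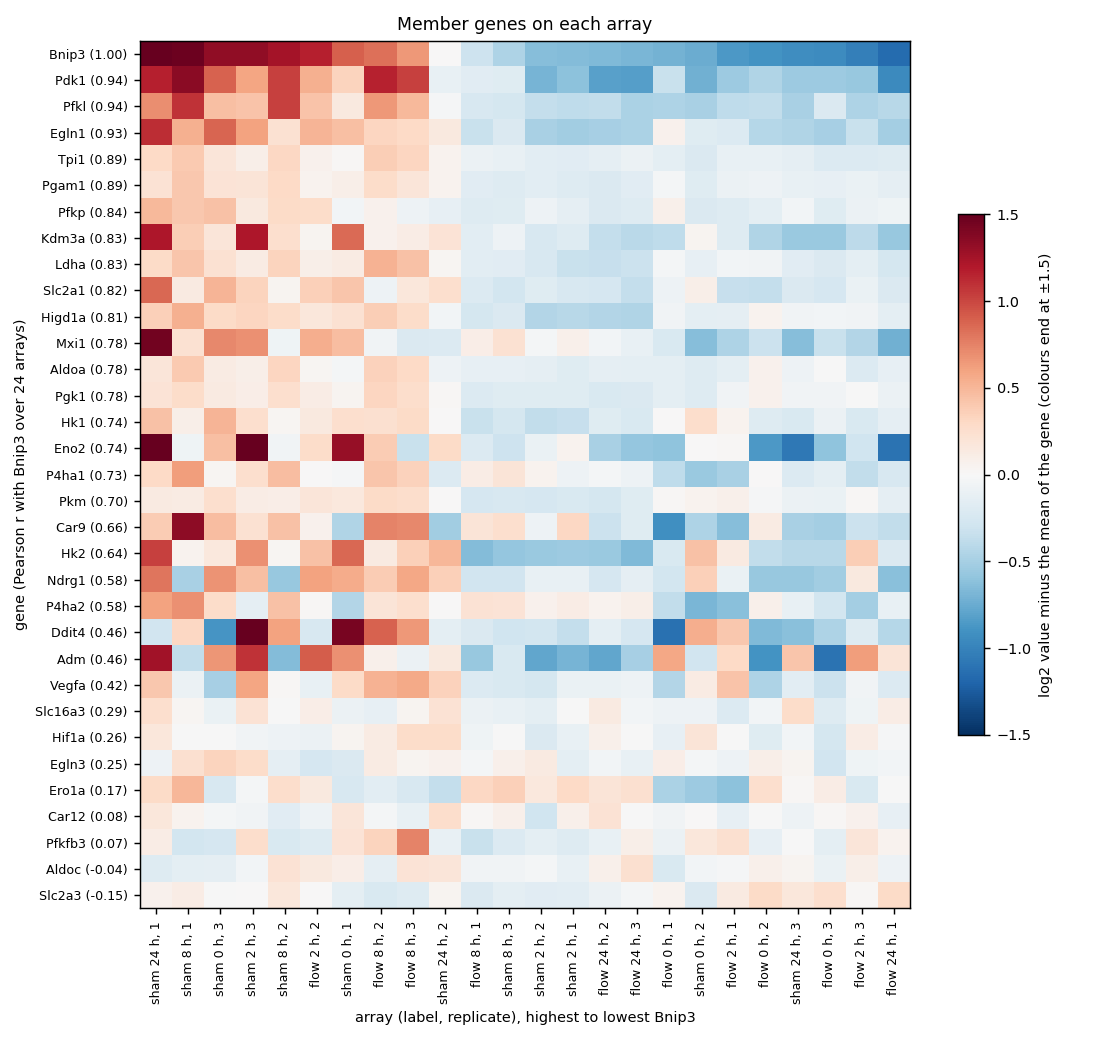
Log2 value minus the mean of the gene (colour) for 33 genes (rows, by Pearson r with Bnip3) on 24 arrays (columns, from the highest to the lowest Bnip3, named by label and replicate). The 9 arrays on the left are high in nearly all of the upper 18 rows and carry both flow and sham labels, and Hif1a, Slc2a3 and Pfkfb3 in the lower rows do not follow.

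Of the other 32 members, 17 followed Bnip3 with a Pearson r of at least 0.7 over the 24 arrays. Among all 12392 genes other than Bnip3, those 17 included, 43 did so (0.347%). These correlations describe arrays that share labels, normalization and RNA quality, and no p is given. The highest were those of Pdk1 (0.94), the liver-type phosphofructokinase Pfkl (0.94), Egln1 (0.93), the triosephosphate isomerase Tpi1 (0.89) and the phosphoglycerate mutase Pgam1 (0.89). Next came the platelet-type phosphofructokinase Pfkp (0.84), Kdm3a (0.83), Ldha (0.83), Slc2a1 (0.82) and Higd1a (0.81). After removal of the mean of each label 19 members reached 0.7, so the common movement lay within the labels.

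Size differed between the genes that moved together. Pdk1 ranged over 2.31 log2 units, Egln1 over 1.64 and Pfkl over 1.57, whereas the highly expressed enzymes Tpi1, Pgam1, Aldoa, Pgk1 and Pkm ranged over 0.54 to 0.61. Mxi1, an antagonist of Myc, ranged over 2.18 (r = 0.78 with Bnip3). Car9, a carbonic anhydrase of the cell surface, ranged over 2.26 (r = 0.66) and was highest at 8 h, with 5.86, 6.41 and 6.39 in flow and 7.01, 6.11 and 5.92 in sham. It was above a log2 value of 6 on only 6 arrays.

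Ero1a followed Bnip3 with r = 0.17 but P4ha2 with r = 0.72, P4ha1 with r = 0.62 and Car9 with r = 0.54. P4ha2, P4ha1 and Car9 themselves followed Bnip3 with r = 0.58, 0.73 and 0.66, and the other Ero1a probe sets did not share the pattern of the chosen one. Vegfa (0.42), Adm (0.46), Ddit4 (0.46), Ndrg1 (0.58) and Hk2 (0.64) followed Bnip3 in part. Hif1a (0.26), Egln3 (0.25), Slc16a3 (0.29), the carbonic anhydrase Car12 (0.08), Pfkfb3 (0.07), the brain-type aldolase Aldoc (-0.04) and Slc2a3 (-0.15) followed it least, and of these only Hif1a and Slc2a3 were above a log2 value of 6 on all arrays. Over all 528 pairs of members the median r was 0.39.

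Genes outside the list joined the same group. Ranked by r with Bnip3, the first 30 genes of 12392 held 14 members and 6 genes of a further list of hypoxia targets: Ak4, an adenylate kinase of mitochondria (0.92), the collagen lysyl hydroxylase Plod2 (0.89), the phosphoglucomutase Pgm1 (0.89), Fam162a (0.89), Jmjd6 (0.86) and the glycogen synthase Gys1 (0.84). Mgarp (0.93) and the glucose 6-phosphate transporter Slc37a4 (0.90) also stood among the first 6. Of the 34 measured genes of that further list, 27 had the lower mean in flow at 0 h (median log2 difference -0.15) and 31 at 24 h (median -0.16), against 46.9% and 45.6% of all genes.

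At an adjusted p under 0.05, 0 genes of the further lists were called. The hypoxia target Angptl4, an inhibitor of lipoprotein lipase, averaged 10.09 ± 0.27 in flow and 10.90 ± 0.16 in sham at 0 h (SD, n = 3 each), a difference of -0.81 (limma adjusted p = 0.224). Of 13 regulators of HIF 8 were lower in flow at 0 h and 4 at 24 h, with medians of -0.03 and 0.01, so the tilt was not seen in them. Of 9 genes of the pentose phosphate pathway, the branch of glucose use that yields NADPH and ribose, 7 were higher in flow at 0 h (median 0.13) and 7 at 24 h (median 0.05). Among 22 other enzymes and carriers of glucose use 13 were lower at 0 h and 8 at 24 h, and among 8 genes of pyruvate entry to the mitochondria 4 and 7.

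The core ACGTG did not set apart the members that followed Bnip3. Counting Bnip3 itself, 12 of 18 genes (66.7%) with r of at least 0.7 and a promoter window held it, and 11 of 13 measured genes (84.6%) with a lower r did. The windows printed above show both cases for ACGTG. Pfkl, with no ACGTG but 1 match of the other core GCGTG, had r = 0.94. Hif1a, with 3 matches of ACGTG and 0 of GCGTG, had r = 0.26. Members were not divided in this way by GCGTG.

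The values also followed the order of the deposited columns. The 24 columns were divided into 3 successive runs of 8, and arrays 8 columns apart were set beside each other with no condition read from the order. Among the 33 members the median share of variance that lay between the 8 labels was 39.4%, and the share between the 8 positions in a run was 57.7%. Over all 12393 genes these shares were 41.3% and 47.9%. The SD was smaller among arrays 8 columns apart than among arrays of a label for 25 of 33 members (75.8%), and for 65.5% of all genes.

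Ndrg1 had the largest share of variance between positions, 89.4%, with 57.2% between labels. For Mxi1 the shares were 73.8% between positions and 17.2% between labels. For Pkm they were 85.1% and 40.6%, for Hk1 83.6% and 38.4%, and for Ero1a 79.7% and 48.0%. P4ha1 (34.0% and 61.3%), Car9 (28.4% and 56.3%) and Hif1a (42.0% and 59.0%) were among the 8 genes that ran the other way. Bnip3 was high in column 1 of each run, at 10.82, 11.24 and 10.74, and in column 3, at 11.25, 11.08 and 11.64, and it was low in columns 7 and 8. In columns 5 and 6 it was high in run 2 alone.

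**Figure D4:**
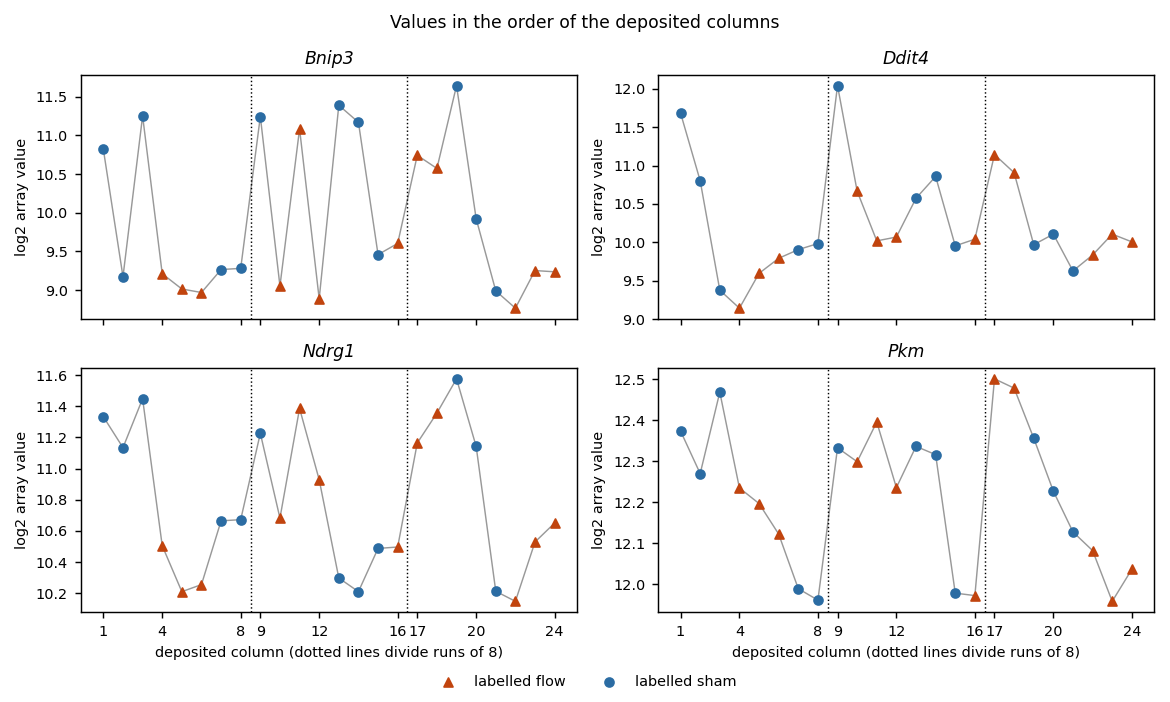
Log2 array values (vertical axes, not from 0) of Bnip3, Ddit4, Ndrg1 and Pkm against the position of the deposited column, with triangles for arrays labelled flow, circles for arrays labelled sham and dotted lines between runs of 8 columns. Ndrg1 and Pkm start each run high, and Bnip3 is at 11.25, 11.08 and 11.64 in column 3 of the runs, where labels of both kinds occur.

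With the runs as a covariate the differences at 0 h and 24 h stayed as they were. All arrays of each of those times lie in 1 run. At 2 h and 8 h the list median became -0.28 at both times. There flow and sham share a run only through sham 2 h replicate 3 and flow 8 h replicate 1. Each adjusted difference therefore set that 1 array against the mean of the other group. Bnip3 then differed by -1.57 at 2 h and -1.07 at 8 h, and 15 and 14 members changed sign. Whether labels or columns describe the cells of each array was not tested.

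**Figure D5:**
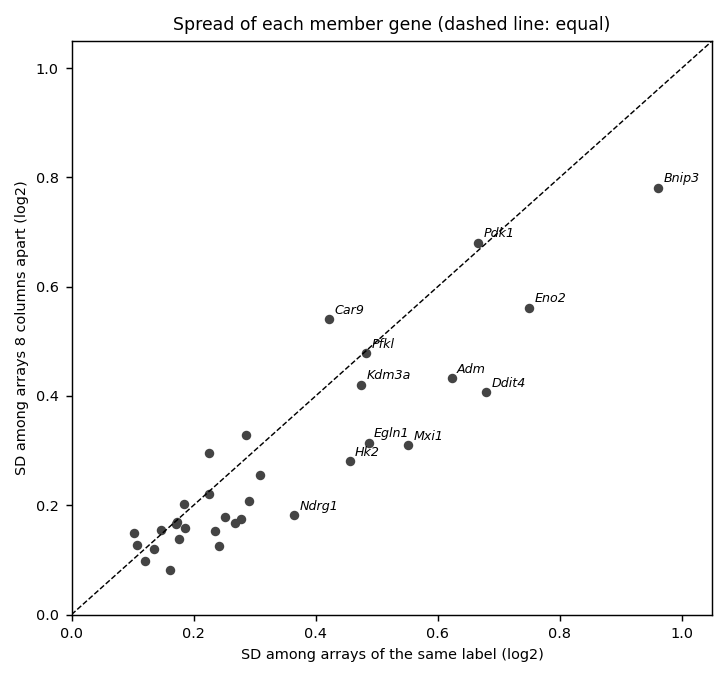
SD of the log2 values among arrays of the same label (horizontal axis) and among arrays 8 columns apart (vertical axis), with 1 point for each of 33 genes and a dashed line where both are equal. Of the points, 25 lie below the line, Ndrg1 at 0.36 and 0.18.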

How the data were processed

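The data are 24 Affymetrix arrays of MLO-Y4 RNA in 8 labelled groups of 3. The authors deposited log2 expression values from RMA, as the submitters' processing notes say. Its version is not given in the sources used here. No further normalization was applied. Array signals are relative, carry no counts, and their number limits the precision. Of 22690 probe sets, 20380 had 1 symbol in the platform annotation, 691 several, 1555 none, and 64 were controls. The symbols were checked against RefSeq, which changed 0 of them, and 29 had no RefSeq entry. For each of 12393 genes the probe set of highest mean was kept.

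All 24 arrays entered a model of group means (limma 3.58.1, R 4.3.3). Flow was set against sham at single times, over the 4 times (F-test), as a mean and as a difference between times, with Benjamini-Hochberg adjustment over all genes and a threshold of 0.05. The model was run on simulated data with independent noise for each gene and array. Such data lack the movement shared by genes on these arrays, so the run cannot show how the model deals with it. Values on single arrays are given for the 3 members with the smallest p at each time, the 6 with the widest range, and Hif1a, Vegfa, Slc2a1, Hk2 and Ldha. Those of Egln1 are also given, chosen after its values were seen. Genes outside the lists were named by their r with Bnip3, which was chosen as the point of comparison after its values were seen. The members, the further gene lists and the tests were chosen with earlier results of these data known. The alternatives tried were array weights, a replicate block, moderation with a trend and robust, renewed quantile normalization, centring, a filter (log2 value of at least 6 in 3 arrays, passed by 28 members), the mean of all probe sets, RNA quality covariates, runs of columns, fits to 1 time only and leaving out single arrays.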

Additional observations from a re-analysis of the deposited data

How the results depend on the processing

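No member difference was called, and none that an alternative called had the opposite sign. Uncalled differences did turn sign, for 11, 14, 10 and 13 of 33 members at 0, 2, 8 and 24 h with RNA quality covariates. With runs of columns 15 and 14 did so at 2 and 8 h, where a single array stood for sham and for flow in turn. Array weights, which raise and lower whole arrays by how well they fit their label, changed the counts of called genes most, to 2330 at 0 h, 2312 at 2 h, 3151 at 8 h, 2361 at 24 h, 6024 in the F-test over the 4 times, 53 for the mean over the times, 5955 for the difference between times and 4675 for the change over time in sham. Under them 12, 3, 5 and 13 of 33 members were called at 0, 2, 8 and 24 h (36.4%, 9.09%, 15.2% and 39.4%), against 18.8%, 18.7%, 25.4% and 19.1% of all genes. Subtraction of the array median and the mean of all probe sets each called 1 gene at 2 h. With runs of columns as a covariate 25 genes were called at 0 h, 2 in the F-test and 1350 for the change over time in sham, 5 of them members. The change over time in sham gave 18 genes with RNA quality covariates and 18 with the replicate block, against 51 without either. The replicate block called 0 genes at each time and changed no call of a member, but took the members lower at an unadjusted p under 0.05 at 24 h to 3, against 8 without it. The values gave no sign that the labels' numbers pair the arrays. Deviations correlated above 0.1 in 2 of 12 pairs (range -0.346 to 0.192), and 3 of 24 arrays correlated best with their own number. With 3 arrays in a group this cannot decide whether the numbers mark the paired controls.

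When each array was left out in turn, the number of called genes ran from 0 to 1 at 0 h, from 0 to 117 at 2 h (most without sham 2 h replicate 3), from 0 to 672 at 8 h (most without flow 8 h replicate 1), from 0 to 278 at 24 h (most without sham 24 h replicate 3), from 0 to 1394 in the F-test, from 0 to 0 for the mean over the times, from 0 to 2045 for the difference between times and from 14 to 410 for the change over time in sham. The cause of these changes was not tested. RNA quality covariates moved 49 of 132 member differences by more than the SD within groups, runs of columns 37, the mean of all probe sets 6 and array weights 1. Array weights called another 33 member differences, which were not compared with the SD. Renewed quantile normalization left every member difference within that SD. Trend and robust moderation, the filter and the arrays of 1 time alone cannot change a difference, only its test. Under each of these alternatives every count of calls between flow and sham stayed at 0. At 24 h, however, trend and robust moderation took the members lower at an unadjusted p under 0.05 to 2, and the filter took them to 4.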
